A study of Mus musculus with 15 samples.

Results

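The 42 genes described here belong to the G1/S program, the set of transcripts that a cell makes as it leaves G1 and copies its DNA. They were taken as a list of gene symbols, matched to the array's annotation, with the brightest probe set kept for each gene. All 42 had a probe set, among 19938 genes with one, and 41 were bright enough to be tested, among 10834 genes tested. They were measured in splenic CD4+CD25+ cells, which the labels name Treg cells, from wild-type (WT) mice and from mice lacking Ikzf2 (the gene of Helios), Ikzf4 (the gene of Eos) or both (dKO, Ikzf2-/-Ikzf4-/-). The series has 15 single-colour arrays: WT 1 to 6, and for each of the 3 knockout genotypes 3 arrays numbered 1 to 3. No agent was given to any group in the labels, and strain, age, sex and the design of the deleted alleles are not given in the sources used here. No label says that arrays of a group came from separate animals, so every p-value measures the spread between arrays, which may be technical. Controls were the WT arrays of the knockout's own run: WT 4 to 6 for Ikzf2-/- (run 2, 6 arrays), and WT 1 to 3 for Ikzf4-/- and dKO (run 1, 9 arrays). The 2 runs were inferred from the numbering and from the values, and levels are compared only within a run.

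DNA replication is prepared in G1, when the origin recognition complex, Cdc6 and Cdt1 load the Mcm2-7 helicase onto origins, and geminin keeps this from happening again later in the cycle. Origins fire when Ticrr (treslin), Mcm10, Cdc45 and the GINS complex turn the loaded helicase on, and the polymerase alpha-primase, the replicative polymerases, the clamp Pcna and its loader then copy the DNA. Transcription of most of these genes is held down by retinoblastoma proteins in resting cells and is released through E2F factors when cyclin D and cyclin E kinases act. Treg cells are known to divide in vivo more than most resting CD4 T cells, so a spleen sample holds some cells in S phase, and these arrays read the RNA of the whole sample. In such bulk RNA a larger share of cycling cells and more RNA of these genes per cell cannot be told apart.

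A few facts of the arrays touch all results. Array medians of the log2 signal lay between 4.82 and 5.01. Cd3e and Foxp3, which define T cells and Treg cells, read 10.75 or more and 10.10 or more in all 15 arrays. The Ikzf2 probe set read 10.06, 9.14 and 9.22 in Ikzf2-/- where WT 4 to 6 read 10.25 to 10.38, and 10.11, 10.16 and 10.59 in dKO where WT 1 to 3 read 10.46 to 10.76. The Ikzf4 probe set read between 7.76 and 8.23 in all 15 arrays, with no drop in Ikzf4-/- or dKO. Neither the deleted exons nor the probes' positions are known here, and these signals check the labels only in part. Ikzf2-/- 3 had the highest mean signal of the 9 tested B cell markers (7.54, with 4.83 to 5.61 in the rest of run 2) and of the 7 tested neutrophil markers (9.09, against 5.20 to 6.91). WT 1 stood apart in the same way in run 1 (B cell markers 6.60, against 4.33 to 4.47), and Ikzf2-/- 2 had the lowest mean of the 8 T cell and Treg markers (9.78, against 10.18 to 10.41 in run 2). Ikzf2-/- 2 also had the highest mean of run 2 over the 3 tested CD8 T cell and NK cell markers (6.18, against 5.70 to 5.93). Of these, Cd8b1 read 7.31 in it and 6.06 to 6.12 in the rest of run 2. The Y-linked gene Eif2s3y read 7.94 to 8.81 in WT 3, Ikzf4-/- 3, dKO 2 and dKO 3, and 2.87 to 3.09 in the other 11 arrays.

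The stretch before the start of these genes is shown first, because the genes are known as targets of a common set of promoter-binding factors. RefSeq stretches of 250 bases before the gene start (build GRCm38.p6) were found for 33 of the 42 genes, as 36 stretches. Printed 5′ to 3′ on the gene's strand are those of the gene that passed the test (Ticrr), of Rrm2 and Prim1, with large differences in Ikzf2-/- against WT, of Cdc45, with a large one in dKO against Ikzf4-/-, and of Mcm6, the helicase gene with the most matches to E2F-type letters. Capitals mark E2F-type letters on either strand (TTCCCGC, the related form TTCGCGC, the related form TTGCCGC and the related form TTGGCGC) and the CCAAT box (CCAAT, either strand). They lie at chr7:79659946-79660195 (plus strand) for Ticrr, chr12:24708004-24708253 (plus) for Rrm2, chr10:128014965-128015214 (plus) for Prim1, chr16:18811973-18812222 (minus) for Cdc45 and chr1:128359706-128359955 (minus) for Mcm6.
Ticrr: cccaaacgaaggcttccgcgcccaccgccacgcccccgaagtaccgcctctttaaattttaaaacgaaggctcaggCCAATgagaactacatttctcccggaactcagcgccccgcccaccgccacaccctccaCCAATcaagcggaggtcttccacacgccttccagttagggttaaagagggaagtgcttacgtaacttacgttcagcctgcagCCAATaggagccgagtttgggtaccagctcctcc
Rrm2: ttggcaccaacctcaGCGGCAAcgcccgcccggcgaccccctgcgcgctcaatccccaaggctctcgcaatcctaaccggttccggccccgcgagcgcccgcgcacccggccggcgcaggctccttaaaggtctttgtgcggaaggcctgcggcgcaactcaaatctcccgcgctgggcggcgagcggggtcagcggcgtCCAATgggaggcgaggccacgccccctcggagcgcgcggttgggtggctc
Prim1: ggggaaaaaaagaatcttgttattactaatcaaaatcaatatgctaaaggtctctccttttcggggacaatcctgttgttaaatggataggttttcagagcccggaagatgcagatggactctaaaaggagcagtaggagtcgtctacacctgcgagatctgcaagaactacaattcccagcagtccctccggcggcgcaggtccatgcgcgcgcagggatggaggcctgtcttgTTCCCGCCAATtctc
Cdc45: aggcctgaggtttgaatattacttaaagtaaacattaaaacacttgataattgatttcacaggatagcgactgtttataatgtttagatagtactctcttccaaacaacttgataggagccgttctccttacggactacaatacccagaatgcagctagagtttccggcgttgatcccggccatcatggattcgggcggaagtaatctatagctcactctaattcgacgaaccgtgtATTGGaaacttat
Mcm6: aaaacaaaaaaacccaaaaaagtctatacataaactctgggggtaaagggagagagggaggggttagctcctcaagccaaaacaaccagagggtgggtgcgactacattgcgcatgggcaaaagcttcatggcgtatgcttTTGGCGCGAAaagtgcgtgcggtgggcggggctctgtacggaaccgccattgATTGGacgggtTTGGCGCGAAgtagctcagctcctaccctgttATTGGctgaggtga

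E2F-type letters were in 17 of the 36 stretches (47.2%), against 13.8% of the 10980 stretches of all genes tested and 7.89% of all 32851 stretches. The CCAAT box was in 24 (66.7%), against 35% and 33.8%. Mcm6 held 4 E2F-type matches, which overlap in pairs on opposite strands, and 2 CCAAT boxes. Prim1 held 1 of each, and there the letters overlap, with TTCCCGC sharing its last base with the first of CCAAT. Ticrr held 3 CCAAT boxes and no E2F-type letters within these 250 bases, and Cdc45 held 1 CCAAT box and no E2F-type letters. The GC box GGGCGG was in 61.1% of the members' stretches and in 56.7% of those of genes tested. The letters TTTGAA and the variant form TTCGAA of the CHR element known from mitotic promoters, were in 13.9% of the members' stretches and in 12.1% of those of genes tested, against 43.8% of the 16 stretches of mitotic genes, where E2F-type letters were in 12.5%. Within 100 bases of the start, E2F-type letters were in 25% of the members' stretches and in 6.52% of those of genes tested. A match is a description of letters, not of binding.

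The mean log2 signal over the 41 genes gives each array 1 value. In run 1 it was 6.59, 6.64 and 6.48 in WT 1 to 3, 6.47, 6.69 and 6.37 in Ikzf4-/- 1 to 3, and 6.58, 6.85 and 6.63 in dKO 1 to 3. In run 2 it was 6.17, 6.20 and 6.01 in WT 4 to 6 and 6.33, 6.23 and 6.62 in Ikzf2-/- 1 to 3. All 3 Ikzf2-/- arrays thus lay above the 3 WT arrays of their run, Ikzf2-/- 2 by a small margin, while the groups of run 1 overlapped. Group means were 6.57 ± 0.08 in WT 1 to 3, 6.51 ± 0.16 in Ikzf4-/-, 6.69 ± 0.14 in dKO, 6.13 ± 0.10 in WT 4 to 6 and 6.39 ± 0.20 in Ikzf2-/- (SD, n = 3 each). The same mean over all genes tested was 6.73 to 6.79 in WT 4 to 6 and 6.82, 6.73 and 6.88 in Ikzf2-/- 1 to 3, so it was also highest in Ikzf2-/- 3. The mean over 19 mitotic genes was 6.47, 6.09 and 7.21 in Ikzf2-/- 1 to 3 where WT 4 to 6 had 5.66 to 5.94, and 6.14, 7.01 and 6.78 in dKO 1 to 3 against 6.04 to 6.47 in WT 1 to 3.

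**Figure D1:**
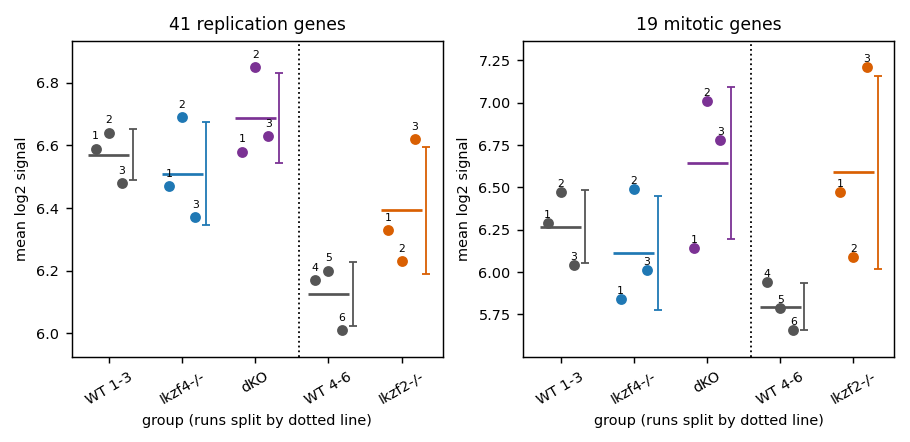
Mean log2 signal per array over the 41 replication genes (left) and 19 mitotic genes (right); points are arrays with their replicate number, horizontal lines group means and bars ± 1 SD (n = 3). Ikzf2-/- 3 (6.62) stands above WT 4 to 6 (6.01 to 6.20), and dKO 2 (6.85) is the highest array of run 1.

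Single arrays carried much of the pattern. Ikzf2-/- 3 had the highest signal of run 2 in 32 of the 41 genes, and in 33.7% of all genes tested. WT 6 had the lowest signal of that run in 24 of them (23.9% of all genes). In run 1, dKO 2 was the highest array in 21 of the 41 genes (13% of all genes) and Ikzf4-/- 3 the lowest in 22 (13% of all genes).

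**Figure D2:**
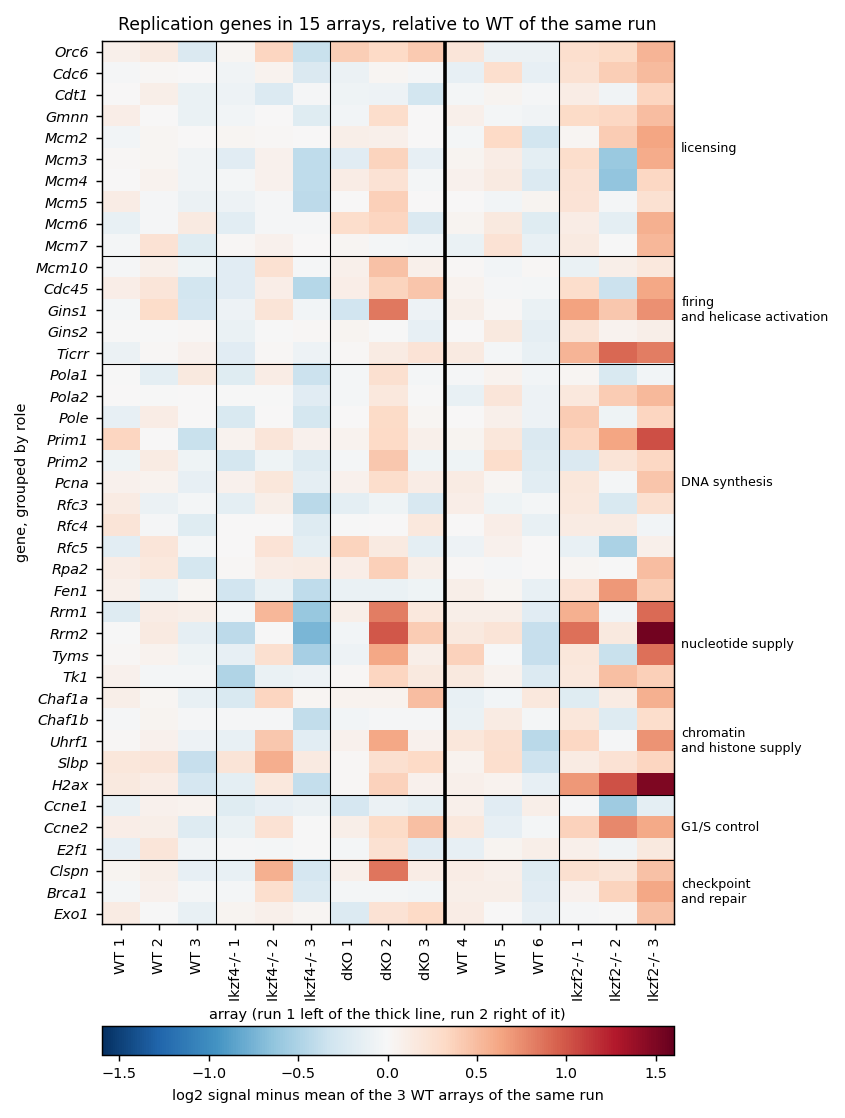
Log2 signal of each gene in each array minus the mean of the 3 WT arrays of its run, with genes grouped by role; red is above WT and blue below. The column of Ikzf2-/- 3 and that of dKO 2 are the reddest of their runs, and H2ax, Ticrr and Prim1 are above the WT mean in all 3 Ikzf2-/- arrays.

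The first comparison asks how the genes differ when Ikzf2 is missing and Ikzf4 is present. Of the 41 genes, 37 had a positive log2 difference in Ikzf2-/- over WT 4 to 6 and 4 a negative one (54.9% and 45.1% of all genes), with a median of 0.226 against 0.022 over all genes. Limma called 1 of them, Ticrr (Benjamini-Hochberg adjusted p over all genes under 0.05), where 0.0646% of all genes were called in either direction and 0.0369% as higher. At an unadjusted p under 0.05, 14 of the 41 genes were higher and 0 lower, against 11% and 5.34% of all genes. In 10 genes all 3 Ikzf2-/- arrays lay above all 3 WT arrays (10.8% of all genes), and in 0 genes below (5.39%).

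Ticrr, which brings Cdc45 to loaded helicases under cyclin-dependent kinase control, read 5.17, 5.00 and 4.91 in WT 4 to 6 and 5.57, 5.94 and 5.85 in Ikzf2-/- 1 to 3. Every knockout array lay above every WT array. Ticrr rose by 0.76 on the log2 scale (SE 0.11), which is 1.69-fold, with an adjusted p of 0.0428 in limma. The rise was 0.73 without Ikzf2-/- 3, with an adjusted p of 0.12 in limma, and in a fit of only these 6 arrays the adjusted p was 0.547. Limma called 0 of the 41 genes when Ikzf2-/- 3, WT 4, WT 5 or WT 6 was left out. The same held for any run 1 array other than WT 1. Without Ikzf2-/- 1 it called 6 (Ticrr, Pola2, Prim1, Fen1, H2ax and Ccne2), and 404 of all 10834 genes tested. Without Ikzf2-/- 2 it called Ticrr and H2ax, and 165 of all genes. With all arrays it called 7 of all genes, so calls rose over the whole array in these 2 fits.

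Other genes of origin firing are components of the active helicase. Gins1, a GINS subunit, read 5.24, 5.16 and 5.04 in WT 4 to 6 and 5.79, 5.58 and 5.88 in Ikzf2-/-, groups that did not overlap. Its difference of 0.60 (SE 0.23) did not pass in limma (adjusted p = 0.211). Cdc45 read 6.25, 6.17 and 6.16 in WT and 6.47, 5.85 and 6.81 in Ikzf2-/-, so that Ikzf2-/- 2 lay below WT and the others above it. Gins2 and Mcm10 differed by 0.11 and 0.05.

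Among the 10 tested licensing genes, 9 had a positive difference (median 0.20) and 4 had an unadjusted p under 0.05, namely Orc6, Cdc6, Gmnn and Mcm2, with differences of 0.36 to 0.38. Gmnn (geminin) passed the filter on low values only through dKO and Ikzf2-/-, so its difference is partly set by that filter. Cdc6, the loader that joins the origin recognition complex in G1, read 4.89, 5.29 and 4.89 in WT and 5.27, 5.42 and 5.53 in Ikzf2-/-, with an overlap at WT 5. Orc6, the smallest origin recognition subunit, read 7.11, 6.82 and 6.82 in WT and 7.18, 7.22 and 7.46 in Ikzf2-/-, without overlap. Cdt1, the partner of Cdc6, read 5.98, 6.05 and 5.99 in WT and 6.13, 5.95 and 6.35 in Ikzf2-/-, which overlap. Mcm5, a helicase subunit, read 6.44, 6.40 and 6.48 in WT and 6.66, 6.41 and 6.68 in Ikzf2-/-. The 6 genes of the Mcm2-7 ring did not move together: their differences ran from -0.02 (Mcm4) to 0.36 (Mcm2). Mcm3 and Mcm4 were lower in Ikzf2-/- 2 (6.13 and 6.45) than in any other array of run 2. Orc1 was too dim to be tested, with log2 signals of 4.15 to 4.60 in all 15 arrays.

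Of the 11 DNA synthesis genes 9 had a positive difference, with a median of 0.17. Prim1, the catalytic primase subunit, read 6.76, 6.90 and 6.49 in WT and 7.06, 7.35 and 7.75 in Ikzf2-/-. The groups did not overlap, and the difference of 0.67 (SE 0.18) did not pass in limma (adjusted p = 0.114). Prim2, the other primase subunit, differed by 0.10 (SE 0.17). Fen1, the nuclease that trims Okazaki fragments, read 5.87, 5.81 and 5.66 in WT and 6.00, 6.47 and 6.17 in Ikzf2-/-, without overlap (difference 0.43, SE 0.12). Pcna, the sliding clamp, read 10.36, 10.27 and 10.07 in WT and 10.41, 10.20 and 10.68 in Ikzf2-/-, which overlap. Pola1, the catalytic subunit of polymerase alpha, read 5.85, 5.93 and 5.83 in WT and 5.90, 5.62 and 5.83 in Ikzf2-/-, a difference of -0.09 (SE 0.13), while its partner Pola2 differed by 0.36 (SE 0.11).

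Nucleotide supply genes had the largest role median, 0.41, with 4 of 4 positive. Rrm2, the small subunit of ribonucleotide reductase made in S phase, read 6.54, 6.59 and 6.02 in WT 4 to 6 and 7.27, 6.54 and 7.93 in Ikzf2-/- 1 to 3. Ikzf2-/- 1 and 3 lay above WT and Ikzf2-/- 2 within it. The difference was 0.86 (SE 0.32, 1.82-fold) and did not pass in limma (adjusted p = 0.199); without Ikzf2-/- 3 it was 0.52. Rrm1, the large subunit, read 7.15, 7.15 and 6.88 in WT and 7.63, 7.01 and 7.96 in Ikzf2-/-, the same order of arrays. Tyms, thymidylate synthase, read 6.75, 6.38 and 6.02 in WT and 6.56, 6.03 and 7.26 in Ikzf2-/-, with only Ikzf2-/- 3 above WT. Tk1, thymidine kinase, read 7.49, 7.39 and 7.12 in WT and 7.50, 7.82 and 7.72 in Ikzf2-/-, without overlap (difference 0.35, SE 0.13). Its dimmer probe set differed by 0.04, so the probe sets of Tk1 disagree.

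H2ax, the histone variant phosphorylated at DNA breaks, had the largest difference of the 41 genes. It read 6.46, 6.43 and 6.24 in WT 4 to 6 and 7.07, 7.40 and 7.87 in Ikzf2-/- 1 to 3, well apart. The difference was 1.06 (SE 0.19, 2.09-fold), just short of the threshold in limma (adjusted p = 0.0661), and 0.85 without Ikzf2-/- 3. Uhrf1, which keeps DNA methylation through replication, read 6.34, 6.41 and 5.72 in WT and 6.49, 6.14 and 6.87 in Ikzf2-/-, which overlap. Slbp, the histone mRNA binding protein, and the chromatin assembly subunits Chaf1a and Chaf1b differed by 0.23, 0.17 and 0.09.

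The cyclin E genes went different ways. Ccne2 read 5.06, 4.77 and 4.86 in WT and 5.27, 5.67 and 5.50 in Ikzf2-/-, without overlap, a difference of 0.59 (SE 0.14) that did not pass in limma (adjusted p = 0.0866). Ccne1 read 6.95, 6.69 and 6.97 in WT and 6.85, 6.30 and 6.71 in Ikzf2-/-, a difference of -0.25 (SE 0.13) and the lowest of the 41. E2f1, the activating E2F factor, read 4.39, 4.57 and 4.62 in WT and 4.61, 4.47 and 4.68 in Ikzf2-/-, which overlap. In the checkpoint and repair role, Brca1 read 4.85, 4.85 and 4.58 in WT and 4.83, 5.11 and 5.38 in Ikzf2-/-. Its signals passed the filter on low values through Ikzf2-/- alone, so its positive difference is partly set by that filter. Clspn, claspin of the fork checkpoint, read 5.08, 5.04 and 4.76 in WT and 5.21, 5.17 and 5.43 in Ikzf2-/-, without overlap (difference 0.31, SE 0.22).

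The median over the 41 genes stayed positive when any array of run 2 was left out, from 0.127 to 0.335. Without Ikzf2-/- 3, the array with the most B cell and neutrophil marker signal, 27 of 41 genes were positive, the median was 0.127 (all genes -0.004) and 8 genes had an unadjusted p under 0.05, all higher. Without WT 6 that count was also 8 (median 0.168, all genes 0.011), and without Ikzf2-/- 2 it was 20 (median 0.335, all genes 0.062). The share of all genes at that p was not counted in these fits, so the counts cannot be set against it. Beside these values, 9 of 9 B cell and 7 of 7 neutrophil markers had a positive difference in Ikzf2-/- (medians 0.92 and 1.88). Of these, 5 B cell markers (Pax5, Blk, Cr2, Fcer2a and Ebf1) and 2 neutrophil markers (Ltf and Mpo) passed the filter on low values through Ikzf2-/- alone, so their sign is partly set by it. The others include Ms4a1, the CD20 gene, which read 6.62, 4.81 and 8.62 in Ikzf2-/- where WT read 5.05 to 5.28. In all, 35 of the 41 genes were above the filter on low values in all 4 genotypes; Mcm10, Brca1, Gmnn, Prim2, E2f1 and Exo1 passed it through some, and their counts here are partly set by it. What part the other cells have in the differences was not tested.

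**Figure D3:**
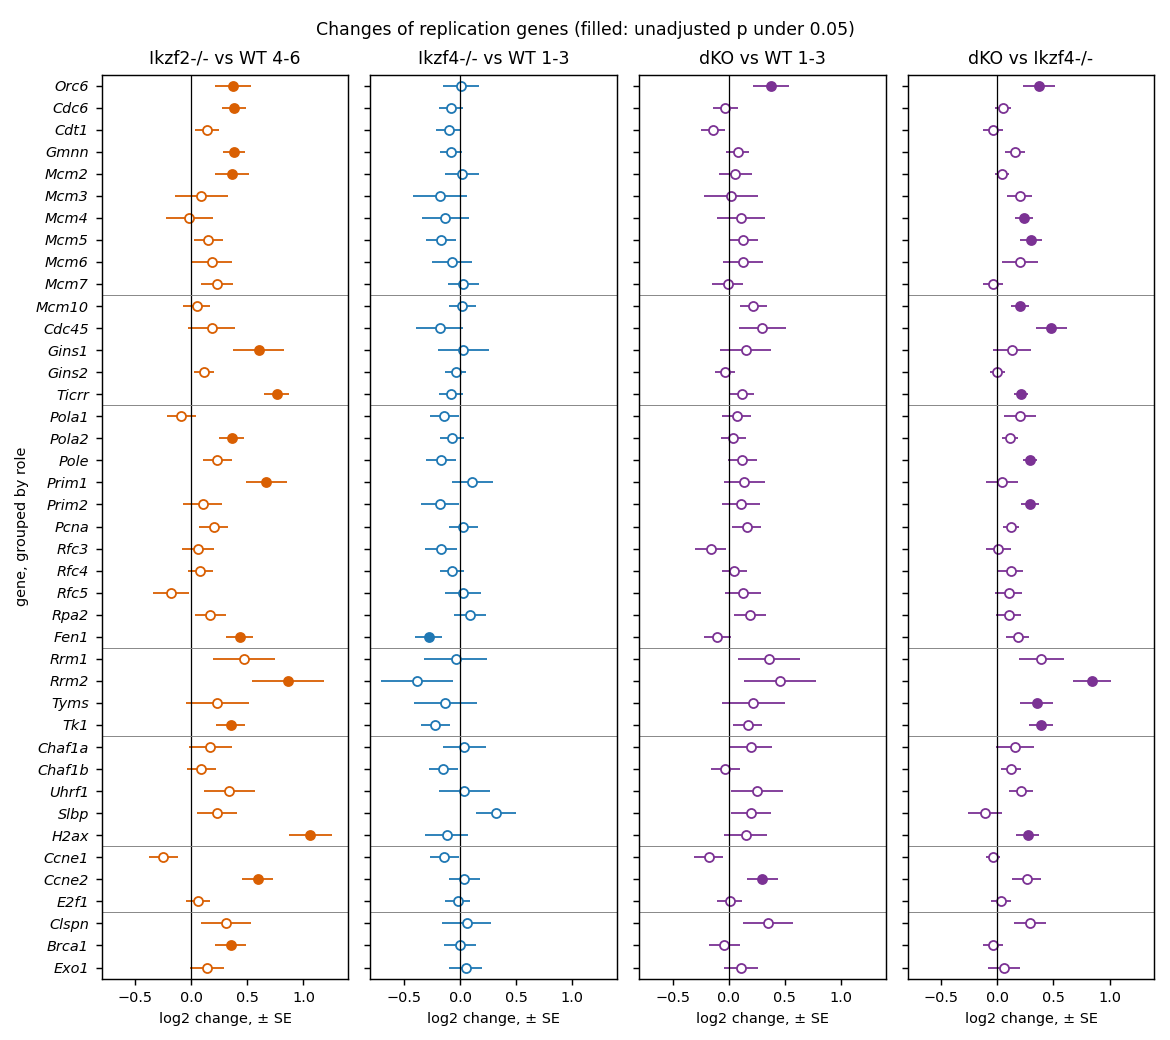
Fitted log2 change ± SE of each gene in the 4 comparisons, grouped by role; filled points have an unadjusted p under 0.05 in limma. Most points lie above 0 in Ikzf2-/- vs WT 4-6 (37 of 41) and dKO vs Ikzf4-/- (36 of 41), and 16 of 41 do in Ikzf4-/- vs WT 1-3.

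The next comparison sets cells lacking only Ikzf4 beside WT 1 to 3. Of the 41 genes, 16 had a positive and 25 a negative difference (53.2% and 46.8% of all genes), with a median of -0.07 against 0.007 over all genes. Limma called 0 of them, as it did of all genes (0%), with a smallest adjusted p of 1. At an unadjusted p under 0.05, 0 were higher and 1, Fen1, lower, against 1.17% and 0.978% of all genes.

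Fen1 read 6.47, 6.28 and 6.42 in WT and 6.08, 6.28 and 5.98 in Ikzf4-/-, a difference of -0.28 (SE 0.12), and the groups met at a single value. Tk1 was the 1 gene whose groups did not overlap (2.85% of all genes had the Ikzf4-/- arrays below, and 3.66% above, where the members had 0): it read 7.96, 7.86 and 7.87 in WT and 7.42, 7.79 and 7.82 in Ikzf4-/-. Its difference was -0.22 (SE 0.13), carried by Ikzf4-/- 1. Rrm2 read 6.88, 7.03 and 6.74 in WT and 6.46, 6.88 and 6.15 in Ikzf4-/-, a difference of -0.38 (SE 0.32) with an overlap at Ikzf4-/- 2. All 4 nucleotide supply genes had a negative difference, with a median of -0.18.

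Slbp read 7.71, 7.72 and 7.16 in WT and 7.74, 8.11 and 7.68 in Ikzf4-/-, the largest positive difference (0.32, SE 0.18), and its other probe set differed by 0.05. Prim2 read 5.54, 5.73 and 5.54 in WT and 5.32, 5.54 and 5.40 in Ikzf4-/- (difference -0.18, SE 0.17). Ikzf4-/- 2 and Ikzf4-/- 3 went apart in many genes, as the array means of 6.69 and 6.37 show. Without Ikzf4-/- 1 the median difference was -0.038, without Ikzf4-/- 2 it was -0.132 with 6 genes positive, and without Ikzf4-/- 3 it was -0.004 with 20 positive. Markers of other cells were lower beside these values: 0 of 9 B cell and 0 of 7 neutrophil markers had a positive difference (medians -0.67 and -0.73), and Lyz2 stood at -2.13 (SE 0.76). Without WT 1, which had the highest B cell and neutrophil means of run 1, the median over the replication genes was -0.066.

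The dKO cells were set beside the same WT arrays, which this comparison shares with the last. Of the 41 genes, 32 had a positive and 9 a negative difference (52.1% and 47.9% of all genes), with a median of 0.124 against 0.005 over all genes. Limma called 0 of the 41 (0.0646% of all genes were called). At an unadjusted p under 0.05, 2 were higher (Orc6 and Ccne2) and 0 lower, against 2.41% and 1.91% of all genes. The median rested on single arrays: without dKO 2 it was 0.044, with 24 of 41 positive, and without WT 3 it was 0.06. B cell markers were lower in dKO as well, with 0 of 9 positive (median -0.77), while 4 of 7 neutrophil markers were positive (median 0.0), and without WT 1 the median over the replication genes was 0.136.

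Orc6 was the 1 gene whose dKO arrays all lay above WT (5.39% of all genes did), and 0 genes had them all below (4.13%). It read 7.11, 7.18 and 6.80 in WT and 7.43, 7.35 and 7.45 in dKO, a difference of 0.38 (SE 0.16). Ccne2 read 5.28, 5.27 and 4.97 in WT and 5.27, 5.48 and 5.66 in dKO (difference 0.30, SE 0.14), with an overlap at dKO 1. Rrm2 read 6.84, 7.88 and 7.29 in dKO against the WT values given above, a difference of 0.46 (SE 0.32) that became 0.19 without dKO 2. Clspn read 5.19, 5.24 and 5.02 in WT and 5.23, 6.00 and 5.27 in dKO, which is dKO 2 standing alone. Gins1 showed the same array, at 6.23 in dKO 2 against 5.08 and 5.30 in dKO 1 and 3.

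The comparison of dKO with Ikzf4-/- reads the loss of Ikzf2 in cells that lack Ikzf4, with arrays paired by replicate number. Of the 41 genes, 36 had a positive and 5 a negative difference (49.4% and 50.4% of all genes), with a median of 0.161 against -0.001 over all genes. Limma called 0 of them (0.0185% of all genes were called), with adjusted p of 0.375 and more. At an unadjusted p under 0.05, 12 were higher and 0 lower, against 4.02% and 3.14% of all genes. In a fit without the pairing, which also took in the arrays of run 2, 6 were higher. In 18 genes dKO was higher in all 3 pairs (13.8% of all genes), and in 0 genes lower in all 3 (12.8%). In 2 genes, Mcm5 and Tk1, all dKO arrays lay above all Ikzf4-/- arrays, and in 0 below (4.1% and 4.17% of all genes). The mean over the 41 genes was higher in dKO by 0.11, 0.16 and 0.26 in pairs 1, 2 and 3, with 28, 29 and 32 genes higher.

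Rrm2 had the largest difference. It read 6.46, 6.88 and 6.15 in Ikzf4-/- 1 to 3 and 6.84, 7.88 and 7.29 in dKO 1 to 3, higher in dKO by 0.38, 1.00 and 1.15 in the pairs. Its mean difference was 0.84 (SE 0.17, 1.79-fold) and did not pass in limma (adjusted p = 0.375). The other nucleotide supply genes also had positive differences in each pair. Rrm1 read 7.44, 8.01 and 6.87 in Ikzf4-/- and 7.57, 8.29 and 7.64 in dKO (difference 0.39, SE 0.20), Tyms 6.82, 7.20 and 6.42 against 6.87, 7.57 and 7.04 (0.35, SE 0.15). Tk1 read 7.42, 7.79 and 7.82 in Ikzf4-/- and 7.92, 8.24 and 8.05 in dKO, where the groups did not overlap (0.39, SE 0.11), and its dimmer probe set differed by 0.52. The median of the role was 0.39, the largest of the 7 roles.

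**Figure D4:**
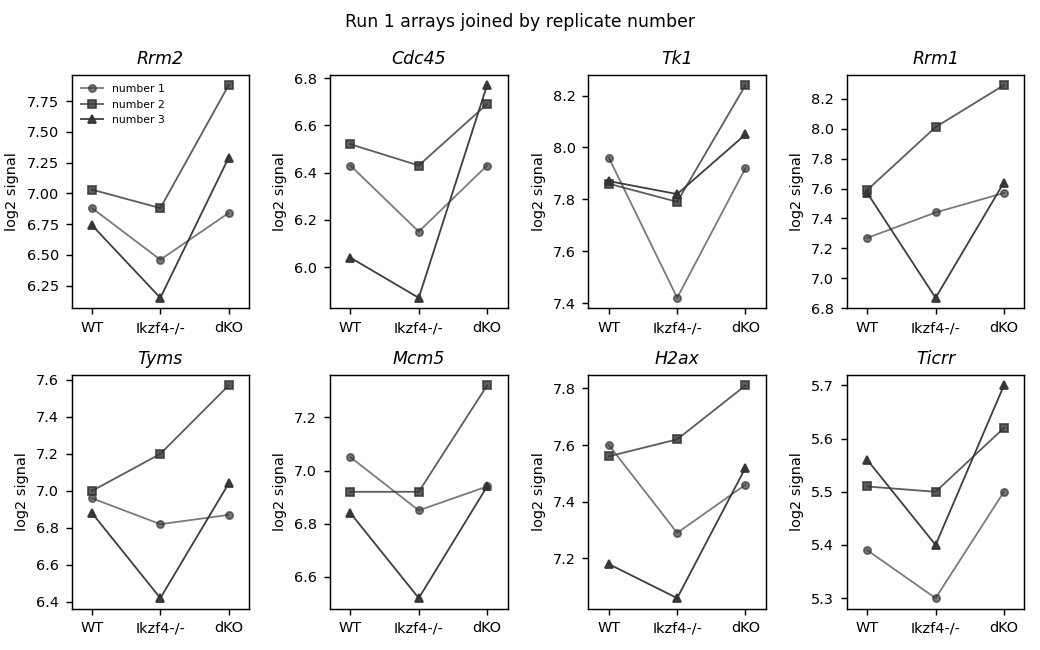
Log2 signal of 8 genes in the run 1 arrays, with lines joining arrays of the same replicate number across WT, Ikzf4-/- and dKO. The genes shown are all among the 18 of 41 that were higher in dKO in all 3 pairs. Each line therefore rises from Ikzf4-/- to dKO, by 0.38 to 1.15 for Rrm2.

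Among the firing genes, Cdc45 read 6.15, 6.43 and 5.87 in Ikzf4-/- and 6.43, 6.69 and 6.77 in dKO. It was higher in each pair, by 0.28, 0.26 and 0.89 (mean 0.48, SE 0.14). Ticrr read 5.30, 5.50 and 5.40 in Ikzf4-/- and 5.50, 5.62 and 5.70 in dKO, a difference of 0.21 (SE 0.06), against 0.76 in Ikzf2-/-. Mcm10, whose signals passed the filter through dKO alone, differed by 0.20.

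Licensing genes had a median difference of 0.18, with 8 of 10 positive. Mcm5 read 6.85, 6.92 and 6.52 in Ikzf4-/- and 6.94, 7.32 and 6.94 in dKO, without overlap. Orc6 read 7.06, 7.38 and 6.67 in Ikzf4-/- and 7.43, 7.35 and 7.45 in dKO, where pair 2 did not differ in the same direction. Cdc6 read 5.83, 5.94 and 5.66 against 5.79, 5.92 and 5.87, and Cdt1 read 6.72, 6.58 and 6.79 against 6.74, 6.72 and 6.51; neither moved one way in all pairs.

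Of the 11 DNA synthesis genes, 11 had a positive difference, with a median of 0.12, and Pole, the catalytic subunit of polymerase epsilon, had the smallest p of the role (difference 0.29, SE 0.06, limma adjusted p = 0.422). Pcna read 10.70, 10.81 and 10.49 in Ikzf4-/- and 10.70, 10.91 and 10.75 in dKO, with pair 1 level. Pola1 read 5.82, 6.13 and 5.67 in Ikzf4-/- and 5.98, 6.27 and 5.98 in dKO, higher in each pair. Prim1, whose groups did not overlap in Ikzf2-/- against WT, read 7.28, 7.42 and 7.29 in Ikzf4-/- and 7.28, 7.54 and 7.30 in dKO, a difference of 0.04 (SE 0.14).

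H2ax read 7.29, 7.62 and 7.06 in Ikzf4-/- and 7.46, 7.81 and 7.52 in dKO, higher in each pair with a mean difference of 0.27 (SE 0.10). Uhrf1 read 6.53, 7.08 and 6.48 against 6.72, 7.27 and 6.72, also higher in each pair (0.21, SE 0.11). In the G1/S control role, Ccne2 read 5.07, 5.40 and 5.17 in Ikzf4-/- against 5.27, 5.48 and 5.66 in dKO (0.26, SE 0.13). Ccne1 read 6.63, 6.70 and 6.73 against 6.56, 6.73 and 6.67, and E2f1 read 5.09, 5.08 and 5.10 against 5.08, 5.35 and 4.93, with no single direction over pairs. Brca1 read 4.89, 5.19 and 4.71 in Ikzf4-/- and 4.89, 4.89 and 4.88 in dKO. RMA gave exactly equal values across some run 1 arrays: 10 of the 41 genes, Brca1 among them, had the same value in 3 or more of the 9 arrays (28.9% of all genes tested), up to 6 arrays for Chaf1b, which makes small differences there coarse.

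Pair 2 was the pair whose arrays differed in the Y-linked signal. Without its arrays, an alternative chosen after the data were seen that also left WT 2 out, the median was 0.179 with 34 of 41 positive. Mean B cell marker signals were 4.35 to 4.47 in Ikzf4-/- and 4.33 to 4.41 in dKO, ranges that overlap. Neutrophil marker means ran from 4.45 to 5.20 in Ikzf4-/- and from 5.24 to 5.97 in dKO without overlap, 7 of 7 had a positive difference (median 0.11). Plasma cell marker means also did not overlap, at 5.84 to 6.11 in Ikzf4-/- and 6.17 to 6.82 in dKO, with 4 of 4 markers positive (median 0.40). Prdm1, the Blimp-1 gene, which effector Treg cells are also known to express, stood at 0.55 (SE 0.12). Of the 3 tested macrophage and dendritic cell markers, 1 was positive, Lyz2 at 0.96 (SE 0.34), and 2 were negative (median -0.04). The part of these cells in the result was not tested. Leaving out Ikzf4-/- 3, the lowest array, brought the genes at an unadjusted p under 0.05 from 12 to 4, and leaving out dKO 2 brought them to 7. Medians were 0.128 and 0.138 (all genes 0.003 and 0.004), and the share of all genes at that p was not counted in these fits.

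The differences of Ikzf2-/- against WT 4 to 6 and of dKO against Ikzf4-/- were taken from group means that share no array. Their p-values are not independent. The spread used for Ikzf2-/- against WT was estimated over all arrays of the series, those of dKO and Ikzf4-/- included. In 33 of the 41 genes (80.5%) the difference was positive in both, against 30.9% of all genes. As 37 and 36 of the 41 were positive in each comparison alone, a large shared count follows from those counts. Over genes, the differences in both comparisons correlated at 0.38 for the 41 genes and 0.31 for all genes (Pearson). By rank these were 0.28 and 0.23, so the members were close to all genes. Orc6, Ticrr, Rrm2, Tk1 and H2ax were higher at an unadjusted p under 0.05 in both, which is 5 of 14 (35.7%) and 5 of 12 (41.7%); over all genes tested the shared genes were 10.5% of 1195 and 29% of 435. Rrm2 was close in both (0.86 and 0.84). Tk1 was at 0.35 and 0.39 by its brighter probe set, and at 0.04 and 0.52 by the dimmer one.

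Whether the difference made by loss of Ikzf2 itself differed with Ikzf4 was tested as the difference of both changes. Loss of Ikzf2 with Ikzf4 present was measured only in run 2, and without Ikzf4 only in run 1. The absence of Ikzf4 and the run therefore cannot be told apart in this difference of changes. Limma called 0 of the 41 genes, and 0% of all genes (smallest adjusted p 0.767). At an unadjusted p under 0.05, 0 were higher and 3 lower in cells lacking Ikzf4, against 1.77% and 4.52% of all genes: H2ax (-0.79, SE 0.27), Prim1 (-0.63, SE 0.26) and Ticrr (-0.55, SE 0.15). A positive difference of changes was seen in 16 genes and a negative one in 25 (45.1% and 54.9% of all genes), with a median of -0.052. That median turned to 0.058 without Ikzf2-/- 3 or without Ikzf4-/- 2 and to 0.007 without WT 6. Without Ikzf2-/- 1 there were 9 genes lower at an unadjusted p under 0.05, a fit in which the share of all genes was not counted. For Rrm2 the difference of changes was -0.02 (SE 0.45).

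The genes varied together between arrays of a group. With each array taken as its deviation from the group mean, each gene was correlated with the mean of the other members over 15 arrays. The median correlation was 0.66 for the 41 genes and 0.16 for all genes tested. For the 19 mitotic genes, taken with the same mean of the replication genes, it was 0.81, higher than for the members themselves. The correlation was positive in 41 of the 41 genes and over 0.7 in 17. Among the 10834 genes tested it was positive in 6587 and over 0.7 in 603. Of the 19 mitotic genes, 19 were positive and 16 over 0.7. Rrm2, Pcna and Uhrf1 (0.94) and Tyms (0.92) followed the rest most closely. Rfc4 and Fen1 (0.07), Gins2 (0.20), Ticrr and Ccne1 (0.22) and Ccne2 (0.25) followed it least. Ticrr, the 1 gene that passed the test, is thus among those that share least of the variation between arrays; these points share arrays, and the correlation is a description.

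Other genes of the pathway, from lists beside the members, were read in the same fits, and 0 of them passed over all genes in any comparison. In Ikzf2-/-, 20 of 22 other replisome and fork genes had a positive difference (median 0.18, 7 with an unadjusted p under 0.05), with Rpa3 at 0.56 (SE 0.31) and Pole4 at 0.45 (SE 0.15). Other licensing and origin genes did not follow: 4 of 9 were positive, and Orc4 stood at -0.30 (SE 0.10). Of 15 other G1/S control genes 13 were positive, with Cks1b, a cyclin-dependent kinase adaptor, at 0.86 (SE 0.19) and Fbxo5 (Emi1) at 0.74 (SE 0.18). Cdkn2c, which encodes the inhibitor p18 and is itself known as an E2F target, stood at 0.79 (SE 0.23). The 19 tested mitotic genes were all positive, with a median of 0.81, but Bub1 and Cenpf passed the filter only through dKO and Ikzf2-/-, which partly sets their sign. Ccnb2 (cyclin B2), above the filter in all 4 genotypes, stood at 1.38 (SE 0.33).

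In dKO against Ikzf4-/-, Asf1b, a histone chaperone gene, stood at 0.66 (SE 0.21), the repressive factor gene E2f8 at 0.59 (SE 0.13) and Chek1 at 0.49 (SE 0.14). Chek1 passed the filter on low values through dKO alone, so its difference is partly set by that filter. The kinase that fires origins is made of Cdc7 and Dbf4, which stood at 0.33 (SE 0.09) and 0.41 (SE 0.16), while the other licensing and origin list as a whole had 3 of 9 positive and a median of -0.01. The mitotic genes were positive in 19 of 19, with a median of 0.51, and 12 had an unadjusted p under 0.05, with Mki67, the Ki-67 gene, at 0.86 (SE 0.28). In Ikzf4-/- against WT 4 of 19 mitotic genes were positive (median -0.14), and in dKO against WT 18 were (median 0.40). Because Bub1 and Cenpf passed the filter only through dKO and Ikzf2-/-, their sign is partly set by it in both comparisons of dKO too. G1/S inhibitor genes had 4 of 13 positive in dKO against Ikzf4-/- (median -0.08). Cdkn2c was highest at 0.43 (SE 0.12) and Btg1 lowest at -0.21, with Cdkn1b, the p27 gene, at -0.12 (SE 0.06).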

How the data were processed

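Total RNA of sorted CD4+CD25+ spleen cells was amplified (15 ng per array) and labelled with biotin using NuGEN kits, per the labels. The authors deposited log2 signals of 35556 probe sets, made with Affymetrix Expression Console 1.3.1 and RMA per the submitters' processing notes. RMA compresses differences of dim genes. Arrays within run 1 had equal values in 2290 probe sets on average, within run 2 in 34.4 and across runs in 0.0741, so the runs were treated as normalized separately.

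Of the probe sets, 21789 had 1 symbol in the platform annotation. A gene was tested where a genotype mean lay above log2 4.96, the midpoint of the ranked probe set means. Limma 3.58.1 in R 4.3.3 (lmFit, eBayes, Benjamini-Hochberg over all 10834 genes, threshold 0.05) fitted 5 group means to 15 arrays. For dKO against Ikzf4-/- it fitted run 1 with the replicate number as a block. Deviations from group means of same-numbered arrays correlated at 0.43, 0.197 and 0.267 between Ikzf4-/- and dKO and at 0.135, 0.218 and 0.306 between WT and Ikzf4-/-; between WT and dKO they did so at 0.0707, 0.0456 and 0.172, under the limit of 0.1 for 2 numbers. The fitting scripts were tested on simulated data.

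Members, lists and tests were chosen with earlier results of these data known. Per-array values are given for genes past the threshold, up to 6 with the largest change per comparison, and a fixed set of genes for each role. Promoter stretches are RefSeq's. The alternatives were normalization, filter, probe set, array weights, arrays left out and the choice of WT arrays. Restricting the list to members above the filter in all 4 genotypes, and leaving out the run 1 arrays numbered 2, were added after the data were seen.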

Additional observations from a re-analysis of the deposited data

How the results depend on the processing

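The count of the 41 genes called in Ikzf2-/- against WT 4 to 6 was the result that moved most. It was 1 with all arrays, 2 after quantile normalization of all 15 arrays together, and 0 under the stricter filter (log2 6.11, which leaves Ticrr out), with only the groups compared, without WT 1 and Ikzf2-/- 3 together, and with all 6 WT arrays pooled. Leaving out 1 array at a time gave 0 to 6, and the fit with 6 called 404 of all 10834 genes tested. Over all genes tested, 7 were called with all arrays and 23 after the quantile normalization. In the other comparisons 0 genes were called under every alternative run. In the 4 comparisons between groups the median difference kept its direction under the alternatives run, apart from the pooling of all 6 WT arrays, which sets run 1 against run 2. There the value for Ikzf2-/- was 0.005, for Ikzf4-/- 0.157 and for dKO 0.354, while the medians of all genes became -0.16, 0.204 and 0.204. The median of the difference of changes (-0.052) had no stable sign: it was 0.058 without Ikzf2-/- 3, 0.058 without Ikzf4-/- 2 and 0.007 without WT 6. With the pooling of WT arrays Fen1 (0.027), Tk1 (0.059), Prim2 (0.49) and Ticrr (0.146) turned positive in Ikzf4-/-. Leaving out 1 array of the groups compared gave medians of 0.127 to 0.335 in Ikzf2-/-, -0.132 to -0.004 in Ikzf4-/-, 0.044 to 0.175 in dKO against WT and 0.128 to 0.209 in dKO against Ikzf4-/-.

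The replicate block is balanced over the groups of run 1, so it cannot change a median and bears only on the errors. With the replicate block, the genes at an unadjusted p under 0.05 went from 1 to 3 lower in Ikzf4-/- against WT, and from 2 higher and 0 lower to 4 higher and 1 lower in dKO against WT. Without the replicate block, they went from 12 to 6 higher in dKO against Ikzf4-/-. The fits with the block held only the arrays of run 1, and those without it held both runs. The spread behind the p-values therefore changed with the arrays as well. What part of these changes in counts comes from the block alone was not tested. Limma called 0 genes in these 3 comparisons with or without the block. The arrays, 3 a group, limit what could be called, and 6 of the 41 genes lay near the filter on low values in some genotypes.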
